A study of Mus musculus with 3 samples.

Results

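Cyclins and the cyclin-dependent kinases (CDKs) were examined in CLDE cells, an epithelial line made from the cervical loop of the mouse tooth. The set held 39 genes, 22 cyclins and 17 CDKs, and a gene was a member if the array's own gene name matched the list. All 39 were on the array, with 102 of its 56598 probes and among its 37071 gene names. The study, by its title, concerns keratin 15 and proliferation in the outer enamel epithelium, the outer cell layer of the enamel organ. One array each was made 72 h after mock transfection (mock), transfection with non-targeting ON-TARGETplus siRNAs (siNeg) or transfection with an siRNA duplex against Krt15 (siKrt15). All 3 arrays came from the same line, with no genotype given, grown in a serum-free medium for keratinocytes, so the model is 1 cell line. What the mock transfection contained was not given in the sources used here. For the siNeg and siKrt15 arrays the labels contradict each other: the titles and source names give one treatment, and the descriptions and treatment fields give the other. Groups follow the titles, and each array is called by its title.

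A cyclin binds and switches on a CDK, which then phosphorylates its substrates. D-type cyclins with Cdk4 and Cdk6 act in G1, cyclin E with Cdk2 at the entry into S phase, cyclin A through S phase and G2, and cyclin B with Cdk1 in mitosis. The transcripts of cyclins E, A and B and of Cdk1 are periodic in dividing cells, whereas most D-type cyclin and CDK transcripts vary less over the cycle. Other CDKs act on RNA polymerase II and the Mediator complex, and a further set has roles outside the cycle. In the tooth, the cervical loop holds the dividing epithelial progenitors from which the enamel-forming cells come.

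The members were compared in 4 groups: 9 of S and M phase, 5 of G1, 13 transcriptional and 12 atypical. Members and groups were chosen with earlier results of these data known. Signals are Agilent processed signals in arbitrary units. Normalized signals are their log2 values minus the log2 75th percentile of the array, and differences are between normalized signals of 2 arrays. A probe was measured in a comparison when it was well above background on both arrays, and a gene's difference is the mean over its measured probes. Each error is an SD built from the scanner software's own error model, which leaves out differences between cultures. For a gene with several probes it was combined as if the probes were independent, which overlapping probes are not. With 1 array per group there is no replicate check, and no test was possible. Counts are therefore of differences of at least 2-fold, and both comparisons of siKrt15 with a control share the siKrt15 array.

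Of the 59305 non-control spots on each array, 67.3 to 69.2% were well above background and 0 were saturated. The 75th percentile of signal was 216.0 on siKrt15, above 180.4 on siNeg and 191.1 on mock. Krt15 had a signal of 2638 in mock, 1647 in siNeg and 267 in siKrt15. Its normalized signal was lower in siKrt15 than in siNeg by a log2 difference of −2.88 ± 0.20 (error-model SD, 1 probe), the direction that the titles give. The controls also differed in Krt15, with siNeg minus mock at −0.60 ± 0.20. The 5 epithelial markers Krt5, Krt14, Epcam, Cdh1 and Trp63 were all well above background on every array, with a signal summed over the brightest probe of each gene of 191721, 192468 and 210389 in mock, siNeg and siKrt15. Of 6 mesenchymal markers, 4, 3 and 3 were above background, with summed signals of 206, 180 and 107, and Pdgfrb and Lum on none. Dcn made up most of these sums, with 174, 150 and 85.8, and differed by −1.07 against siNeg and −1.20 against mock. Pdgfra and Col3a1, both dim, also lay below 0 in both comparisons, and Vim was above background in mock only. Of 6 endothelial, blood and immune markers, 5 were above background on each array, with summed signals of 2961, 2723 and 2835. Cdh5 of that list was above background on none. The part of these markers in the results below was not tested.

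Cyclins A2, B1, B2 and E1 and the kinase Cdk1 were higher in siKrt15 than in both controls, and no other member reached 2-fold. Of 38 measured members, 5 were higher by 2-fold or more in siKrt15 against siNeg, and 0 were lower by as much. Over all 23853 genes in that comparison, 1.35% were past 2-fold in the higher direction and 2.25% in the lower. Against mock the counts were again 5 higher and 0 lower of 38, with 1.68% higher and 2.08% lower over 23892 genes. The same 5 genes passed against both controls at once, where 1.13% of 23529 genes were higher and 0.82% lower. Between siNeg and mock 0 members passed in either direction, with backgrounds of 0.385% higher and 0.0943% lower. All 5 belong to the S and M phase group, in which 8 of 9 genes were measured. By kind of protein, 4 of 21 measured cyclins and 1 of 17 CDKs were higher. Removal of the signal trend put Ccnj past 2-fold against mock as well, at 1.06, and use of probes at any signal put Ccne2 past it there, at 1.24. In these bulk samples, more cells in S and M phase and more RNA per cell cannot be told apart.

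**Figure D1:**
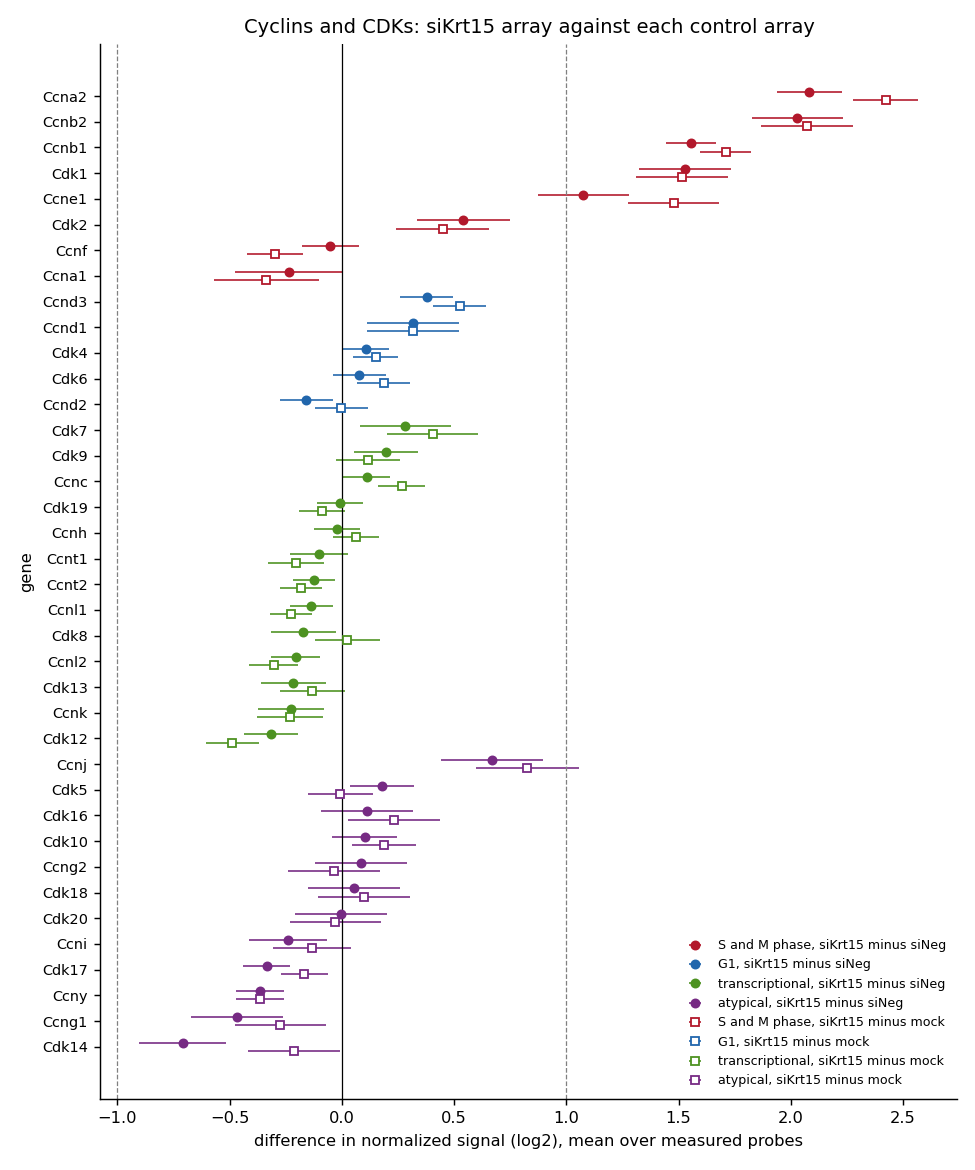
Difference in normalized signal (log2, x axis) of each of the 38 measured members (y axis), siKrt15 minus siNeg as filled circles and siKrt15 minus mock as open squares, with the scanner error-model SD as bars and dashed lines at 2-fold. Ccna2, Ccnb2, Ccnb1, Cdk1 and Ccne1 lie to the right of the upper line in both comparisons, and every other member lies between the lines.

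The S and M phase members had a median difference of 1.301 against siNeg and 1.496 against mock, or 2.46-fold and 2.82-fold. Their median between siNeg and mock was 0.02. The other 30 members had medians of −0.02, −0.02 and 0.06 in the same order. The medians of the groups therefore lay 1.32 apart against siNeg and 1.51 apart against mock. Between siNeg and mock they differed by −0.05. Over all genes the median was −0.13 against siNeg and −0.12 against mock. Over the genes whose signals lay in the range of the measured S and M phase members it was −0.09 and −0.10.

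The group levels can also be read array by array. They are medians of levels, so their steps between arrays need not equal the median differences above. The median normalized signal of the S and M phase group was −1.68 in mock, −1.52 in siNeg and −0.61 in siKrt15, on a scale where 0 is the array's 75th percentile. The G1 group had medians of 4.75, 4.75 and 5.07, on each array the value of Ccnd1. The transcriptional group had 0.14, 0.10 and −0.03, and the atypical group 0.49, 0.55 and 0.42. Probes differ in how strongly they bind, so these levels are set against each other only between arrays.

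**Figure D2:**
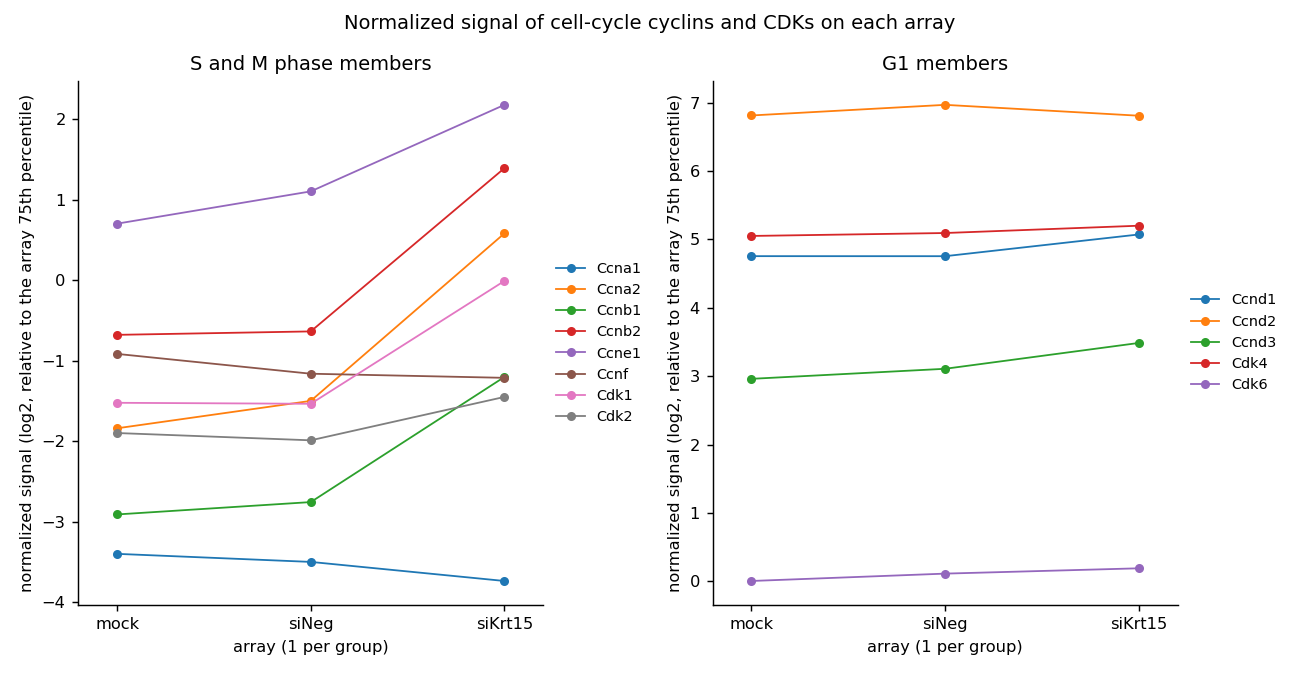
Normalized signal (log2 relative to the 75th percentile, y axis) on the mock, siNeg and siKrt15 arrays (x axis, 1 array each), for the 8 measured S and M phase members on the left and the 5 G1 members on the right, each line being the mean over 1 gene's measured probes. Ccna2, Ccnb1, Ccnb2, Ccne1 and Cdk1 step up between siNeg and siKrt15, while no G1 member differs from its siNeg value by more than 0.38.

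Ccnb1 encodes cyclin B1, the main mitotic partner of Cdk1. Its 4 probes are on chromosome 13 (mm9), 2 of which overlap and share bases, so they are not separate measurements. The other probes are shown because they lie apart from the overlapping pair. They are given 5′ to 3′ in the sense of the transcript, with the coordinates and strand of the scanner files on mm9, as is that of Cdk1.
Ccnb1 probe A_55_P1952256, chr13:101551224-101551283, minus strand: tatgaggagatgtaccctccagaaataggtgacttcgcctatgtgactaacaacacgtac
Ccnb1 probe A_55_P2128668, chr13:101553449-101553508, minus strand: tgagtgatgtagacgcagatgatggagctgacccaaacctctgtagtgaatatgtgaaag
Cdk1 probe A_51_P450033, chr10:68805423-68807832, minus strand: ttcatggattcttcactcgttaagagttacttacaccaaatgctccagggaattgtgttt

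The first of these Ccnb1 probes had a signal of 11.9 in mock, 13.3 in siNeg and 44.0 in siKrt15. The second had 16.0, 15.9 and 43.5. The overlapping probes had 142, 153 and 619 and 15.5, 15.6 and 65.5. On every probe siKrt15 was highest and the controls lay close together. The differences from siNeg were 1.46, 1.19, 1.75 and 1.81, with a mean of 1.56 ± 0.11 (error-model SD, 4 probes), and the mean difference from mock was 1.71.

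Ccnb2, cyclin B2, a second mitotic cyclin, had a signal of 119 in mock, 116 in siNeg and 567 in siKrt15. The controls differed by 0.04. The difference was 2.03 ± 0.20 against siNeg, or 4.08-fold, and 2.07 ± 0.20 against mock, on 1 probe at chr9:70255671-70255730.

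Cdk1, the kinase that drives entry into mitosis, had a signal of 66.5 in mock, 62.2 in siNeg and 215 in siKrt15. Its difference was 1.53 ± 0.21 against siNeg and 1.51 ± 0.21 against mock, while siNeg and mock differed by −0.01. The 60 bases of the Cdk1 probe shown above are spread over 2410 bases of the genome, so the probe crosses a splice junction and reads spliced RNA.

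Ccna2, cyclin A2, which pairs with Cdk2 in S phase and Cdk1 later, was measured with 2 probes. One probe (chr3:36463978-36464037) had a signal of 63.1 in mock, 64.8 in siNeg and 328 in siKrt15. The other (chr3:36464929-36464988) had 45.1, 62.8 and 319. Both probes differed from siNeg by 2.08, a mean of 2.08 ± 0.15, or 4.23-fold. Against mock they differed by 2.202 and 2.644, a mean of 2.42 ± 0.15. The 2 probes gave 0.12 and 0.56 for siNeg minus mock, so the second put the controls further apart.

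Ccne1, cyclin E1, which starts S phase with Cdk2, had a signal of 311 in mock, 388 in siNeg and 979 in siKrt15. The difference was 1.08 ± 0.20 against siNeg, or 2.11-fold, and 1.48 ± 0.20 against mock, on 1 probe. The coordinates given for that probe of 60 bases cover only 24 bases. Ccne1 lay closest to the 2-fold line of the 5 members past it, within 1 error-model SD, and the controls themselves differed by 0.40. Its partner Cdk2 had a signal of 51.2, 45.4 and 79.0 in mock, siNeg and siKrt15. The Cdk2 differences of 0.54 ± 0.21 and 0.45 ± 0.21 did not reach 2-fold.

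None of the remaining S and M phase members was measured at 2-fold or more higher. Ccne2, cyclin E2, had a signal of 2.08 in mock, 3.56 in siNeg and 5.55 in siKrt15, and was well above background in siKrt15 only. Only a bound can be given for it, 1.03-fold against siNeg and 1.08-fold against mock, or 0.045 and 0.107 in log2. This bound sets its value in siKrt15 against the higher of its own value in the control and the lowest signal there among probes well above background. The error-model SD of the Ccne2 probe was 0.51 against siNeg and 0.76 against mock. Both exceed the bounds, so the bounds do not show that Ccne2 was higher. Ccna1, cyclin A1, best known from male germ cells, was dim on its 1 measured probe, with a signal of 18.1, 15.9 and 16.2 and differences of −0.24 ± 0.24 and −0.34 ± 0.23. Its other probe was not well above background on any array. Against siNeg its sign held in 5 of 7 scalings, and that of Ccnf, described next, in 4 of 7.

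Ccnf encodes cyclin F, which acts in a ubiquitin ligase and binds no CDK, and its 3 probes disagreed in sign. The probe shown next, which spans 564 bases of the genome, had a signal of 17.6 in mock, 16.6 in siNeg and 15.0 in siKrt15. The other probes had 54.4, 33.4 and 41.0 and 1083, 945 and 1313. Their differences from siNeg were −0.40, 0.03 and 0.21, a mean of −0.05 ± 0.13, and the mean difference from mock was −0.30 ± 0.13. The brightest probe gave 0.21 against siNeg and 0.10 against mock.
Ccnf probe A_55_P2737582, chr17:24377781-24378344, minus strand: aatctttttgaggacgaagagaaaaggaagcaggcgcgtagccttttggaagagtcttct

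Taken by probe, 9 of 14 measured S and M phase probes were at least 2-fold higher in siKrt15 than in siNeg, and 9 of 14 than in mock. These are the probes of Ccna2, Ccnb1, Ccnb2, Ccne1 and Cdk1, so this restates the count of genes. The share over all measured probes was not counted. Of the 80 measured probes of the other members, 0 were higher in either comparison. At least 2-fold lower were 2 of them against siNeg and 1 against mock. Over the 25 members with several measured probes, the median SD between probes of 1 gene was 0.11 against siNeg and 0.12 against mock. The widest spreads were 0.86 for Cdk14 against siNeg and 0.58 for Cdk12 against mock. Each of the 102 member probes was spotted once, so no spot-to-spot error was available.

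**Figure D3:**
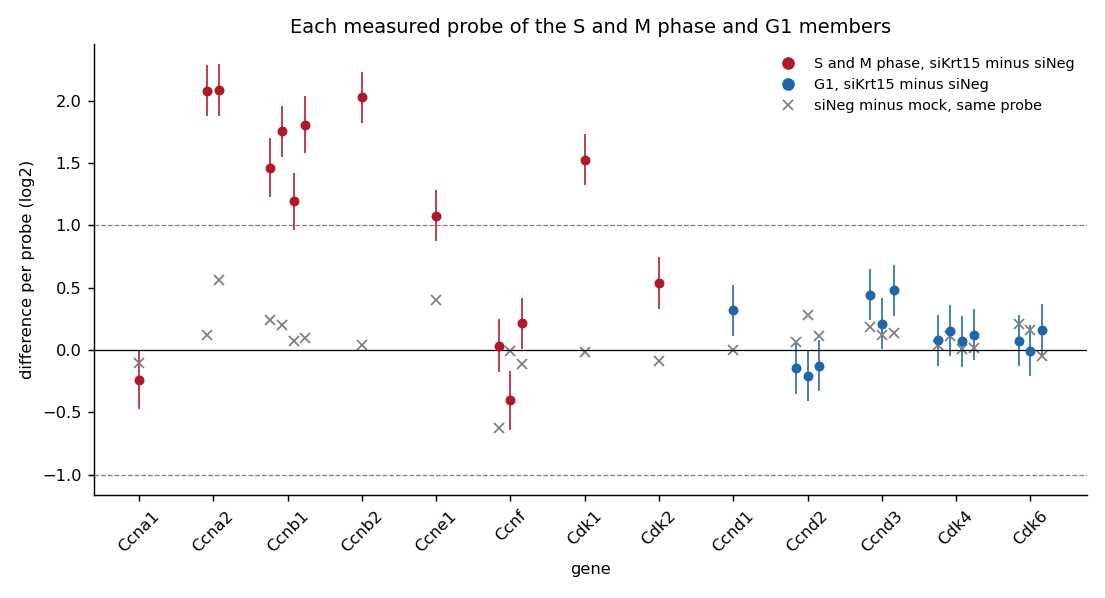
Difference per measured probe (log2, y axis) for the S and M phase members in red and the G1 members in blue (x axis), siKrt15 minus siNeg as circles with the scanner error-model SD, and siNeg minus mock for the same probe as grey crosses. The probes of Ccna2, Ccnb1, Ccnb2, Ccne1 and Cdk1 lie above the 2-fold line at 1, and all crosses lie between −0.62 and 0.56.

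The G1 members had a median difference of 0.11 against siNeg and 0.19 against mock. Ccnd1, cyclin D1, the growth-factor-responsive D-type cyclin, had a signal of 5159 in mock, 4868 in siNeg and 7266 in siKrt15. After normalization its difference was 0.32 ± 0.20 against siNeg and 0.32 ± 0.20 against mock. Ccnd3, cyclin D3, showed the largest difference of the group, 0.38 ± 0.12 against siNeg and 0.52 ± 0.12 against mock, and its 3 probes were all above 0. Of these probes 2 overlap.

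Ccnd2, cyclin D2, was bright on all 3 of its probes. The probe shown here, for contrast with those of Ccnb1 and Cdk1, had a signal of 12448 in mock, 12303 in siNeg and 13328 in siKrt15. The Ccnd2 mean difference was −0.16 ± 0.12 against siNeg and 0.00 ± 0.12 against mock, and its sign changed with the scaling.
Ccnd2 probe A_52_P53906, chr6:127098696-127098755, minus strand: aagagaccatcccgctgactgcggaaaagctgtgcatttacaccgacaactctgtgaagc

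The D-type kinases Cdk4 and Cdk6 phosphorylate the retinoblastoma protein. Cdk4 differed by 0.11 ± 0.10 against siNeg and 0.15 ± 0.10 against mock on 4 probes, 2 of which overlap, with probe values from 0.07 to 0.15 against siNeg. Cdk6 differed by 0.08 ± 0.12 and 0.19 ± 0.12 on 3 probes. Both were above 0 against each control.

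Among the transcriptional members the median difference was −0.12 against siNeg and −0.13 against mock, close to the median of all genes in each. Of these 13 genes, 3 were above 0 and 8 below 0 against both controls. Most genes on the arrays also lay below 0. Against siNeg alone, 10 of the 13 were below 0, and 15673 of 23853 over all genes. Against mock these were 8 of 13 and 15204 of 23892. The subunits of the CDK-activating kinase and TFIIH, Cdk7 and Ccnh, differed from siNeg by 0.28 ± 0.20 and −0.02 ± 0.10. Cdk9 of the elongation factor P-TEFb differed by 0.20 ± 0.14, and its cyclins Ccnt1 and Ccnt2 by −0.10 ± 0.13 and −0.12 ± 0.09. The Mediator kinases Cdk8 and Cdk19 differed by −0.17 ± 0.14 and −0.01 ± 0.10, and their cyclin Ccnc by 0.11 ± 0.10. The kinases of the RNA polymerase II tail Cdk12 and Cdk13 differed by −0.32 ± 0.12 and −0.22 ± 0.14, and their cyclin Ccnk by −0.23 ± 0.15. The splicing-related cyclins Ccnl1 and Ccnl2 differed by −0.14 ± 0.09 and −0.21 ± 0.11. None of the named partners was more than 0.32 from 0 against siNeg.

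Against mock the transcriptional members ranged from −0.49 for Cdk12 to 0.40 for Cdk7. Cdk12 owed most of its value to 1 dim probe. That probe had a signal of 19.4 in mock, 14.5 in siNeg and 9.13 in siKrt15, a difference of −0.93 from siNeg and −1.27 from mock. The brightest Cdk12 probe had 239, 252 and 296, with differences of −0.03 and 0.13. The signs of this group depend on the scaling: of the 10 members below 0 against siNeg, 9 were above 0 with spike-in scaling.

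The atypical members had a median of 0.03 against siNeg and −0.03 against mock, and ranged from −0.71 for Cdk14 to 0.67 for Ccnj against siNeg. Ccnj, cyclin J, had a dim signal of 14.4 in mock, 15.2 in siNeg and 28.9 in siKrt15, and its differences were 0.67 ± 0.23 and 0.83 ± 0.23 on 1 probe. It was the only member outside the S and M phase group at 1.5-fold or more higher in both comparisons. Cdk14, a membrane-linked kinase of cyclin Y, had 2 of 6 probes measured. Its dim probe had a signal of 8.44 in mock, 12.9 in siNeg and 6.20 in siKrt15, a difference of −1.32 from siNeg, and its brighter probe 92.0, 106 and 119, a difference of −0.10. Ccny, cyclin Y, differed by −0.36 ± 0.11 against siNeg and −0.37 ± 0.11 against mock on 4 probes. A dim Ccny probe with 19.5, 21.5 and 11.7 gave −1.14 against siNeg, and the other probes gave −0.18 to −0.02.

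Ccng1, cyclin G1, a target of p53, had a signal of 4745 in mock, 5123 in siNeg and 4438 in siKrt15. Its difference was −0.47 ± 0.20 against siNeg and −0.27 ± 0.20 against mock. Ccng2, cyclin G2, linked to cell-cycle exit, differed by 0.09 ± 0.20 and −0.03 ± 0.20. Cdk17, of the PCTAIRE kinases, differed by −0.33 ± 0.11 and −0.17 ± 0.11 on 4 probes, all below 0, while Cdk16 and Cdk18 of the same family differed by 0.11 ± 0.20 and 0.05 ± 0.20 against siNeg. Ccni, cyclin I, differed by −0.24 ± 0.17 and −0.13 ± 0.17, with 1 of its 3 probes on the opposite strand. Cdk5, known for its work in neurons, differed by 0.18 ± 0.14 and −0.01 ± 0.14. Cdk10 differed by 0.10 ± 0.14 and Cdk20 by 0.00 ± 0.20 against siNeg. Of the 6 atypical members below 0 against siNeg, 2 (Ccni and Cdk20) were above 0 with spike-in scaling.

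The members differed little between the control arrays. Between siNeg and mock the 38 measured members ranged from −0.25 for Ccnf to 0.49 for Cdk14. The 2-fold line lies above that widest control difference, so the 5 members past the line exceed it by that choice alone.

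The regulators of CDKs were described with a list of 50 genes in 8 functional subgroups, all of them measured. The list was chosen with earlier results of these data known, so its counts are a description and no independent check. Against siNeg 8 of 50 were at least 2-fold higher and 0 lower, where 1.35% of all genes were higher and 2.25% lower. Against mock the counts were again 8 and 0, where 1.68% of all genes were higher and 2.08% lower. The list medians were 0.24 and 0.26. Between siNeg and mock 0 passed in either direction. The same 7 genes were at least 2-fold higher against both controls, where 1.13% of all genes were. With normexp background correction 3 of the 7 passed against both (Cdc20, Mybl2 and Ube2c), and with no filter on dim probes 5 did, without Mybl2 and Skp2. Cdkn2a passed against siNeg only, and Cdkn3, a phosphatase that acts on CDKs and is named here after its values were seen, passed against mock only.

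Of the 7 genes, 4 act on the S and M phase CDKs or on the transcription of cell-cycle genes. Cdc25c, the phosphatase that activates Cdk1, had a signal of 29.6 in mock, 32.1 in siNeg and 105 in siKrt15 and differed by 1.45 ± 0.21 against siNeg and 1.64 against mock. Foxm1, a transcription factor for mitotic genes, had 109, 117 and 533 and differed by 1.93 ± 0.20 and 1.73. These signals and the difference from siNeg rest on 1 of its 3 probes, and the difference from mock is the mean of 2 probes, at 1.33 and 2.12. Mybl2, which binds the MuvB complex at such genes, had 297, 298 and 875 and differed by 1.29 ± 0.20 and 1.38 on 1 of its 2 probes. E2f2, an activator E2F, had 31.5, 26.7 and 112 and differed by 1.80 ± 0.15 and 1.65. These genes were named for being past 2-fold against both controls, so siKrt15 was highest in each by that choice. Their controls lay close together, with siNeg minus mock at 0.20, 0.19, 0.09 and −0.16 in the same order.

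The other 3 work in the destruction of cyclins and CDK inhibitors. Cdc20, which directs the anaphase-promoting complex to cyclin B, differed by 1.40 ± 0.14 against siNeg and 1.57 against mock. Ube2c, the ubiquitin-conjugating enzyme of that complex, differed by 1.42 ± 0.20 and 1.58. Skp2, which targets the CDK inhibitor p27, differed by 1.06 ± 0.21 and 1.02 on 1 of its 2 probes. It lay at the line against mock, with 0.9857 when the 75th percentile was taken over spots and 0.9955 when it was taken over probes well above background, both just under 2-fold, so that 6 of the 7 passed against both controls. In the subgroups with no gene past 2-fold against both controls, the largest differences from siNeg were Pkmyt1 among the inhibitory kinases at 0.51 ± 0.14, Cks2 among the Cks subunits at 0.69 ± 0.15, Cdkn2a among the CDK inhibitors at 1.11 ± 0.15 and Hexim1 among the partners of transcriptional and atypical CDKs at −0.55 ± 0.21. Hexim1, an inhibitor of P-TEFb, differed by −0.95 against mock, and its controls differed by −0.40.

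**Figure D4:**
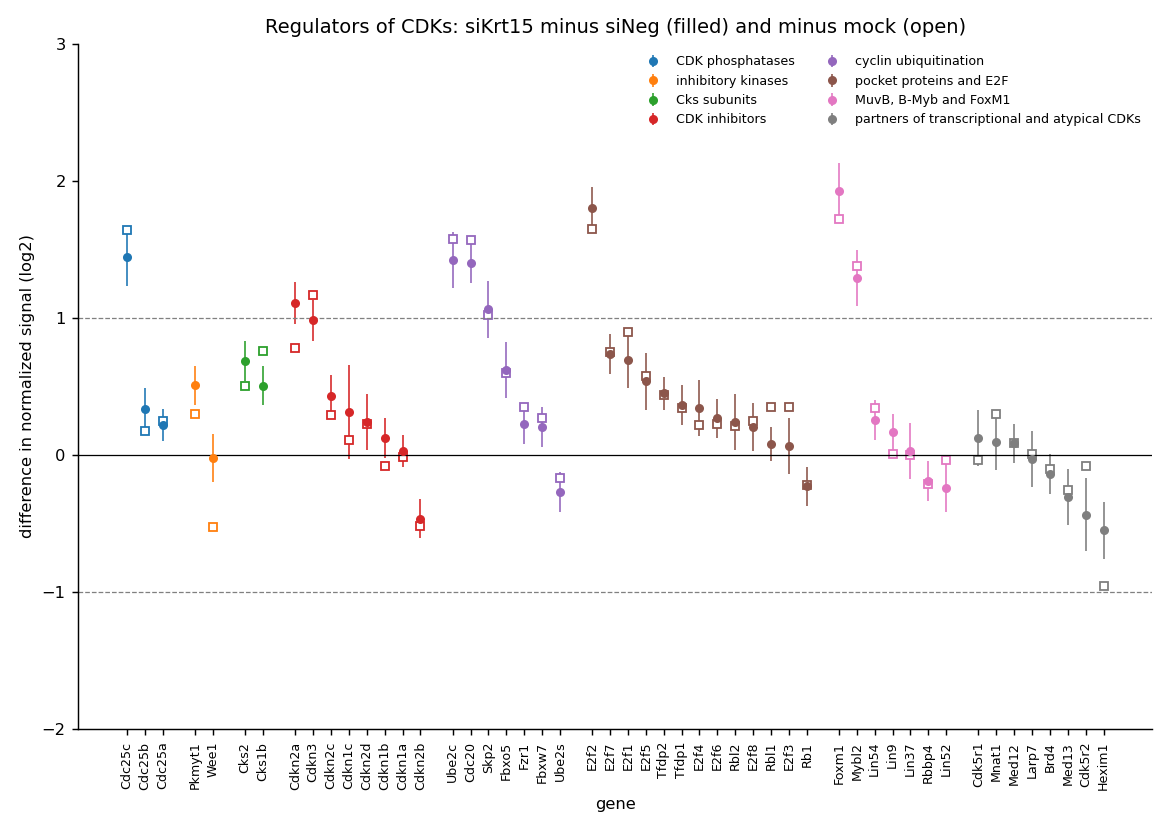
Difference in normalized signal (log2, y axis) of the 50 regulators (x axis) in 8 coloured subgroups, siKrt15 minus siNeg as filled circles with the scanner error-model SD and siKrt15 minus mock as open squares. Cdc25c, Cdc20, Ube2c, Skp2, E2f2, Mybl2 and Foxm1 have both symbols at or above the line at 1, and no gene has both below −1.

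Many genes of G2 and M phase are known to be controlled through CHR elements, bound by MuvB, and CCAAT boxes, bound by NF-Y, and S phase genes through E2F sites, so the promoters of the members were read. The RefSeq table of GRCm38.p6 held promoters for 30 of the 39 members, 7 of them S and M phase genes. The table had none for Ccna2, Ccne2, Ccnd1, Ccnd2, Ccnh, Ccny, Cdk5, Cdk17 and Cdk19. The window searched was 300 bases, 250 before and 50 after the start of the gene, on both strands. Motifs were the CHR letters TTTGAA or TTTAAA, the CCAAT letters, and the E2F letters TTTCCCGC, TTTGGCGC, TTTCGCGC or TTTGCCGC, none of which overlapped another in the sequences shown. The 250 bases before the start are shown for the mitotic genes, with Ccne1 and Cdk4 for contrast, and capitals mark matches on either strand (ATTGG is CCAAT on the other strand).
Cdk1, chr10:69352913-69353162, minus strand: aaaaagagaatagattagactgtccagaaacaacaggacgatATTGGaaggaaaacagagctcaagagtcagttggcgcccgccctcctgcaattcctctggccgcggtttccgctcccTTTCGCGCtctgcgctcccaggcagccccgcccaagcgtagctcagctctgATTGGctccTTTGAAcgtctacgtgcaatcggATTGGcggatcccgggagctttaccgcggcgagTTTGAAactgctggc
Ccnb1, chr13:100786487-100786736, minus strand: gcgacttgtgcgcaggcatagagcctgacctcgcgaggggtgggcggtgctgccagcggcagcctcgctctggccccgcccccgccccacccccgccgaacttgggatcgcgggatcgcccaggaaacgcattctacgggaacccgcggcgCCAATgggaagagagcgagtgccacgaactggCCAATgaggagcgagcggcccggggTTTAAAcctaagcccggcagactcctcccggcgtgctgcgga
Ccnb2, chr9:70421555-70421804, minus strand: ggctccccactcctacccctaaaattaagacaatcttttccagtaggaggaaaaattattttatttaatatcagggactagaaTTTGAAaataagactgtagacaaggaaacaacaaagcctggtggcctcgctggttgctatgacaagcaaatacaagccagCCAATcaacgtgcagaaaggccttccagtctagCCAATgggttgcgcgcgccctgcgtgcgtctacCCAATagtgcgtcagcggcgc
Ccnf, chr17:24251410-24251659, minus strand: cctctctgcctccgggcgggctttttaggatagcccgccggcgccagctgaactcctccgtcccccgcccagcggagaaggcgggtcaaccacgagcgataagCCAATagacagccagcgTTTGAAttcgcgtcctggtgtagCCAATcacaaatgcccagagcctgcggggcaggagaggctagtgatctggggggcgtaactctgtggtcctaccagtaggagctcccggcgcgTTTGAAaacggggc
Ccne1, chr7:38107491-38107740, minus strand: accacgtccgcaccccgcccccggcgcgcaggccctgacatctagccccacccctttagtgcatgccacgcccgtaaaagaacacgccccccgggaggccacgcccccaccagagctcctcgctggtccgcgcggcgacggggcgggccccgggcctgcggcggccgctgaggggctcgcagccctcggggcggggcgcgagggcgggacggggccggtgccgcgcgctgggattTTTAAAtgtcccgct
Cdk4, chr10:127063285-127063534, plus strand: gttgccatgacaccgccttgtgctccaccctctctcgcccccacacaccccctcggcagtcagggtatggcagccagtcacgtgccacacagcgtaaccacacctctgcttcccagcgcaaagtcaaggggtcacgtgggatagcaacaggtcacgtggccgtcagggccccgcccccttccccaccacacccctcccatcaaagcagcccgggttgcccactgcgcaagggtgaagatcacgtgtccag

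Cdk1, Ccnb1, Ccnb2 and Ccnf held both CHR and CCAAT letters. In Cdk1 the CHR letters began 71 and 15 bases before the start, in Ccnb1 at 42, in Ccnb2 at 167, and in Ccnf at 130 and 14. A further CHR match in Ccnb2 began 5 bases after the start and is not shown. Cdk1 also held E2F letters 131 bases before the start. Ccne1 held CHR letters 15 bases before the start and no CCAAT, and Cdk4 held none of the motifs in this window.

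Ccnf held both kinds of letters, and its difference was −0.05 against siNeg. Counts are of genes, and a gene counted when any of its promoters held the letters. Both CHR and CCAAT letters were in 4 of 7 S and M phase genes and 1 of 23 other members, Cdk16, against 12.23% of all 27025 genes. CHR letters, with or without CCAAT, were in 5 of 7 and 4 of 23, against 30.57%. CCAAT letters were in 6 of 7 and 11 of 23, against 41.06%. E2F letters were in 2 of 7 (Cdk1 and Cdk2) and 0 of 23, against 2.6%. The groups and motifs were chosen with earlier results of these data known. Short letters such as these are common, and a match is not a binding site.

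Other ways of processing left the order of the groups in place, as the plot of group medians by setting shows. Some of these settings could not change it. Spike-in scaling and the 75th percentile over spots or over probes well above background shift all genes of an array by the same amount. The gap between the group medians therefore stayed at 1.32 against siNeg and 1.51 against mock in these settings. Ccnb2, Ccne1 and Cdk1 have 1 probe each, well above background on every array. For them, taking the brightest probe or dropping the filter could not change the difference. RefSeq bore out the names of all 102 member probes and the authors' values follow the scanner values, so those settings could change little. With these limits, Ccna2, Ccnb2, Ccne1 and Cdk1 stayed at least 2-fold higher in each of 11 settings against both controls. Ccnb1 did so in 10 of 11 and was 0.63 against siNeg and 0.73 against mock with normexp background correction, which adds an offset that pulls dim probes together. In that setting the S and M phase median was 0.81 against siNeg and 0.89 against mock, and the gap to the other members was 0.82 and 0.90. Among all genes past 2-fold, the share that was higher was 37.5% against siNeg and 44.7% against mock, and it moved with the scaling to 75.4% and 59.5% with spike-in scaling, 68.2% and 70.2% with quantile normalization, 71.4% and 73.2% with the signal trend removed and 75.9% and 77.0% with normexp. For siNeg against mock it was 80.3%, and 37.2% with spike-in scaling. Relative to the median of all genes, the S and M phase members lay 1.43 above against siNeg and 1.61 above against mock, and the other members 0.11 and 0.10 above.

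**Figure D5:**
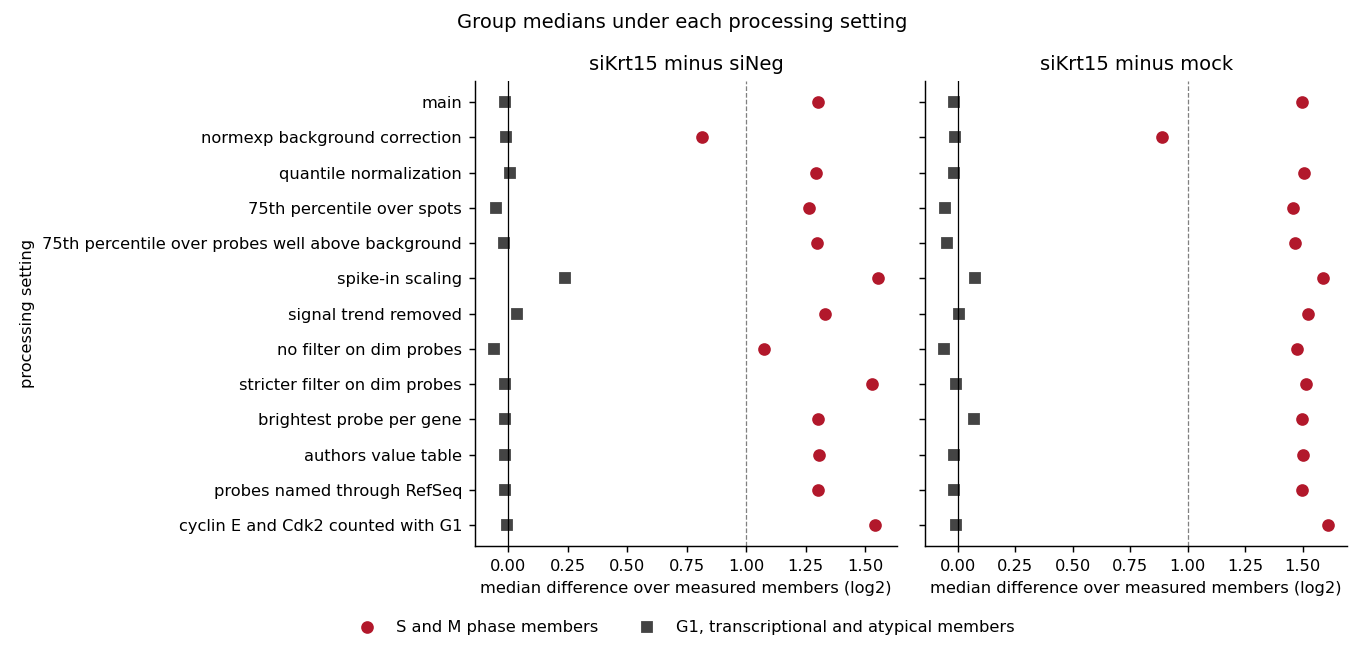
Median difference over the measured members (log2, x axis) under each processing setting (y axis), for siKrt15 minus siNeg on the left and siKrt15 minus mock on the right, with the S and M phase members as red circles and the other members as dark squares. The circles lie between 0.81 and 1.61 and the squares between −0.06 and 0.24.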

How the data were processed

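Total RNA was made into Cy3-labelled cRNA for 1-colour Agilent arrays, per the labels' protocols. The authors' images were quantified with Agilent Feature Extraction 11.5.1.1, per the submitters' processing notes. The deposited scanner files give a background-subtracted intensity per spot and probe coordinates on mm9, per the file headers. The 3 arrays came from 1 slide and 1 scan. The authors' deposited value table is on a log2 scale and followed the scanner values with a Pearson r of 1.00 across probes on each array, with no centring of genes and medians of −3.52, −3.51 and −3.72.

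Control and outlier spots were left out. Log2 intensity minus each array's 75th percentile was averaged per probe, then over the measured probes of a gene. All 102 member probes had names that RefSeq GRCm38.p6 bears out, 73 of them by accession. Software was R 4.3.3 with limma 3.58.1 (normexp), Python 3.11.15, numpy 2.4.6, pandas 2.3.3, statsmodels 0.14.6 and matplotlib 3.10.9, and the procedure was tested on simulated data. Members, groups, lists and motifs were chosen with earlier results of these data known. Named genes were all members, Krt15, the regulators at least 2-fold away from both controls and the regulator with the largest siKrt15 to siNeg difference in each subgroup. Nothing says whether the arrays came from separate cultures of more than 1 experiment. Precision is limited by 1 array per group. Alternatives changed the background correction, the scaling, the filter on dim probes, the averaging of probes, the source of values and names, the fold threshold and the grouping of cyclin E and Cdk2. One gene of the epithelial marker list is not reported here.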

Additional observations from a re-analysis of the deposited data

How the results depend on the processing

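No paired analysis was possible because each group had 1 array, and leaving out an array would leave no comparison. All 3 arrays shared 1 slide and 1 scan, so neither could be a block. No result changed its sign past the threshold. Of 324 counts and group medians under an alternative, 277 stayed and 47 moved. A count stayed when it was within 1.5 times. A group median stayed when its shift was below the median scanner error-model SD of the group's genes. For a gap between groups, the error-model SDs of both were combined. Of the differences of single members, 155 moved and 1095 did not. Normexp gave 88 genes higher and 28 lower against siNeg, 4 regulators higher, an S and M phase median of 0.81 and a gap to the other members of 0.82. Against mock these were 107, 32, 3, 0.89 and 0.90, and for siNeg against mock 0 higher and 2 lower. Quantile normalization gave 208 genes lower against siNeg and 224 against mock, and removal of the signal trend 188 and 213. Spike-in scaling gave 604 higher and 197 lower against siNeg, with medians of 1.55 for S and M phase and 0.24 for the others, and 35 higher, 59 lower and −0.10 for the others in siNeg against mock. It moved the median of all genes from −0.13 to 0.13 against siNeg. With no filter on dim probes, 660 genes were higher and 3626 lower against siNeg, 1 member (Ccna1) was lower and the S and M phase median was 1.08. The other counts were 858 and 3072 against mock and 1433 and 822 for siNeg against mock. A stricter filter gave 92 lower and a median of 1.53 against siNeg, 164 lower against mock, and 6 higher and 3 lower for siNeg against mock. A 1.5-fold threshold gave 941 and 2592 genes, 1 member lower (Cdk14) and 13 regulators higher against siNeg, 1125 and 2643 genes with 13 regulators higher and 1 lower against mock, and 662 and 395 genes for siNeg against mock. With cyclin E and Cdk2 counted as G1 the S and M phase median was 1.54 against siNeg. The cause of these moves was not tested. Signal over background limits Ccne2, Ccna1, Ccnj and the dim probes of Cdk12, Cdk14 and Ccny.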
